A study of Mus musculus with 6 samples.

Results

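The 35 genes described here encode the lysosomal proton pump, lysosomal membrane and lumen proteins, the autophagy machinery and the TFEB family of transcription factors. They were chosen by symbol from the 30803 gene rows of the deposited tables, and all 35 were found, each in a single row. The labels call the samples hematopoietic stem cells (HSCs) of bone marrow. They came from wild-type mice, 5 months of age, as a fraction high in MHC class II (MHCII-hi) and a fraction low in it (MHCII-lo). Each fraction gave 3 poly(A) RNA-seq libraries (n = 3 per group throughout), and the labels name no treatment. No source used here gives the gate markers. The labels do not tie the libraries to separate animals, so p-values reflect only library-to-library spread, possibly technical. Values are FPKM (fragments by transcript length and library total, a unit inferred from the values), so levels can be compared between genes, while read depth is unknown.

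The vacuolar proton pump (V-ATPase) acidifies the lysosome. Its V1 sector hydrolyses ATP in the cytosol, and its V0 sector carries protons through the membrane. Autophagy delivers cytoplasm to the lysosome in vesicles that are coated with lipid-linked ATG8 proteins (the LC3 and GABARAP proteins). TFEB and its relatives TFE3, MITF and TFEC bind E-box sequences in the promoters of lysosomal and autophagy genes. In mice, deletion of Atg7 or Atg5 in blood cells impairs HSC maintenance.

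The FPKM of a library summed to 333347 to 333530 in MHCII-hi and 305934 to 306945 in MHCII-lo, and immunoglobulin segments made up 8.26 to 8.34% of it in MHCII-hi and 0.392 to 0.458% in MHCII-lo. Of 12 stem cell gate and HSC markers, 6 lay below a mean of 1 FPKM, namely Slamf1, Procr, Hoxb5, Fgd5, Mecom and Mycn. These 6 therefore did not bear out the label, and the others, among them Cd48 and Flt3, were not read as support for it. The 12 neutrophil markers summed to 21744 to 22028 FPKM in MHCII-hi and 16554 to 16634 FPKM in MHCII-lo. In bulk libraries, fewer cells of a type and less RNA per cell cannot be told apart.

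Members of the proton pump and the lysosome were mostly lower in MHCII-hi, while most autophagy members and both Tfeb and Tfe3 were higher. Of the 13 pump members, 11 fell and 2 rose, with a median change of -0.31 on the log2(FPKM + 1) scale. Of the 9 lysosomal membrane and lumen members, 8 fell, none rose and Npc1 did not pass, with a median of -0.47. Of the 10 autophagy members, 6 rose, 3 fell and Atg3 did not pass, with a median of 0.22. Tfeb and Tfe3 rose and Mitf fell. Together 10 members rose and 23 fell at a limma adjusted p (Benjamini-Hochberg over all 12295 tested genes) under 0.05. Among all tested genes 67.8% passed, 27.2% as higher and 40.5% as lower, and the median change was -0.08. With median-of-ratios scaling the split of all tested genes was 33.3% higher and 32.5% lower. Of the 35, 34 had a mean of at least 5 FPKM, and among all genes at that level 29.1% were higher and 48.9% lower. The changes of the called members were modest, from -0.72 to -0.13 among the 23 that fell and from 0.14 to 0.70 among the 10 that rose. All 35 passed the minimum of a mean of 1 FPKM over the 6 libraries. In 33 of the 35 the groups did not overlap, 10 as higher and 23 as lower in MHCII-hi. Among all tested genes that held for 72.8%, with 29.6% higher and 43.3% lower.

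**Figure D1:**
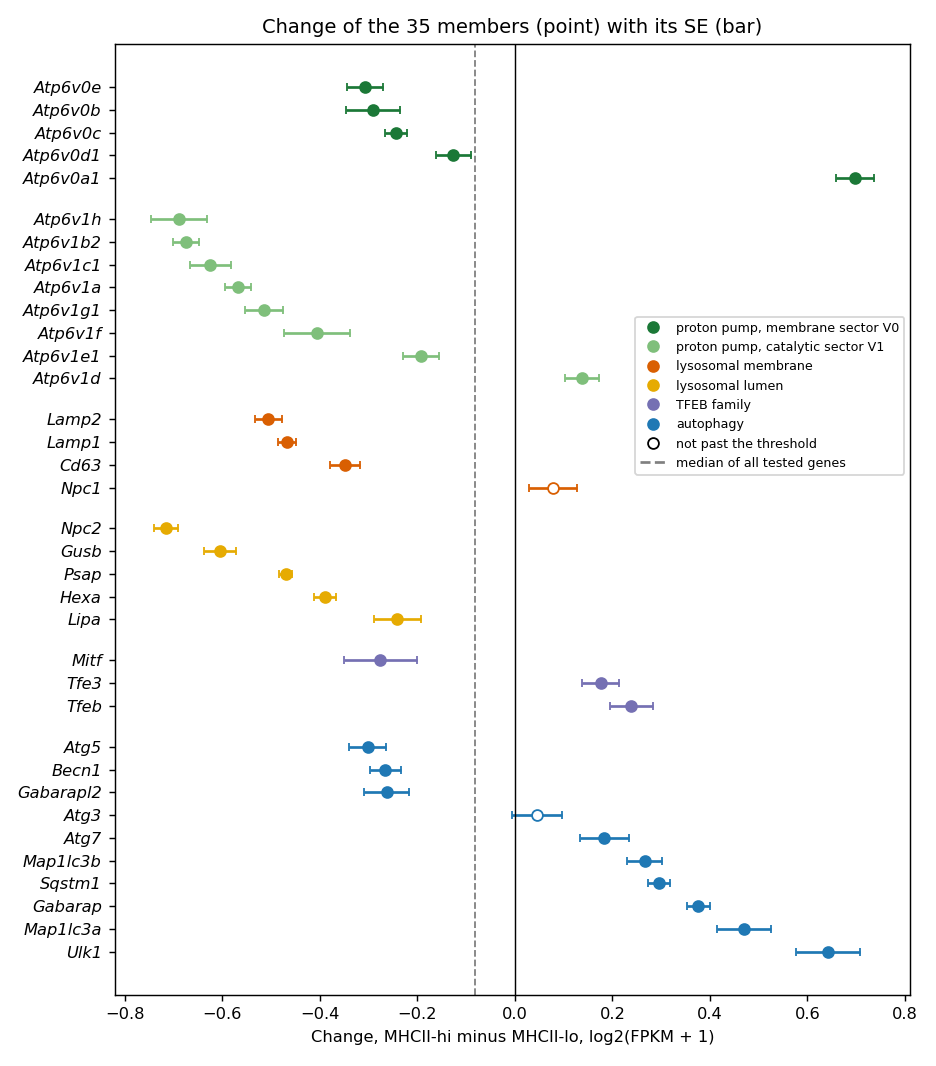
Change of each of the 35 members, MHCII-hi minus MHCII-lo on the log2(FPKM + 1) scale (point), with its SE from limma (bar), by role; open points did not pass and the dashed line is the median of all tested genes, -0.08. Among the pump and lysosomal members only Atp6v0a1 and Atp6v1d passed as higher, and autophagy members lie between -0.30 and 0.64.

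**Figure D2:**
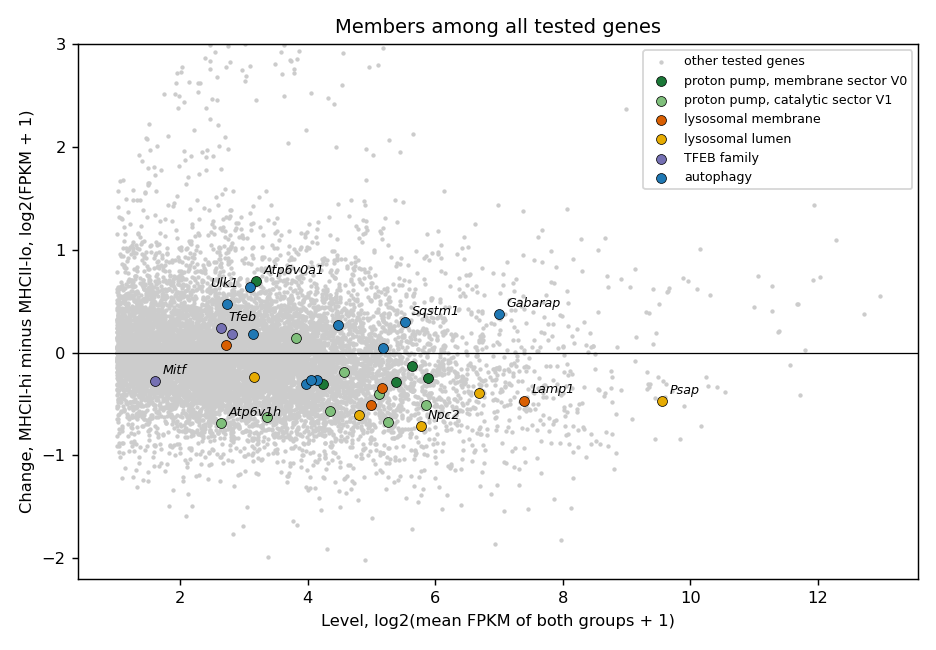
Change (MHCII-hi minus MHCII-lo, log2(FPKM + 1)) against level (log2 of the mean FPKM of both groups + 1) for the members (coloured by role) and all other tested genes (grey); 160 genes with a change above 3 lie off the axis. The members lie inside the cloud of other genes, with Psap and Lamp1 the most abundant of them.

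The promoters of several members hold the E-box core CACGTG, which TFEB family proteins are known to bind. RefSeq windows (GRCm38.p6, 250 bases before to 50 after each start) matched 28 of the 35 members by symbol, and 8 of these 28 (28.6%) had CACGTG in at least 1 window, against 12.2% of 8500 tested genes with a window and 7.15% of all 32851 windows. They were Atp6v0b, Atp6v0d1, Atp6v0e, Atp6v1a, Lamp1, Atg3, Atg5 and Atg7. The longer TCACGTGA, which contains CACGTG and is closer to the motif named for lysosomal genes (CLEAR), stood in 4 of the 28 (14.3%), namely Atg3, Atp6v0d1, Atp6v0e and Atp6v1a, against 2.39% of the tested genes and 0.974% of all windows. The 10-base form of the CLEAR motif itself, which extends TCACGTGA at both ends, stood in 0 of the 28. It stood in 0.882% of tested genes and 0.326% of all windows. At so low a share, 28 genes are too few to show a difference. Each motif reads the same on both strands. No window was matched for Atp6v1b2, Atp6v1c1, Atp6v1g1, Atp6v1h, Becn1, Map1lc3a and Npc1. The windows below were picked from the 8 genes with CACGTG to include differing directions. Of those shown, Lamp1, Atp6v0b, Atp6v1a and Atp6v0d1 fell, Atg7 rose and Atg3 did not pass. The remaining carriers, Atp6v0e and Atg5, also fell, and their windows are not printed. Capitals mark CACGTG, or TCACGTGA where the longer form is present, and each window runs 5′ to 3′ on its gene's strand.
Lamp1: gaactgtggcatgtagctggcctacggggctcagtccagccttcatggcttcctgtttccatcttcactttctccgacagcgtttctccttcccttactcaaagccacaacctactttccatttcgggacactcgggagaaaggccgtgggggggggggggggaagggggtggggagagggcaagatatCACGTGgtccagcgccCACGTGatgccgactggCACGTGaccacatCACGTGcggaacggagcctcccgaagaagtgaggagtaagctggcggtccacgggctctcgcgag
Atp6v0b: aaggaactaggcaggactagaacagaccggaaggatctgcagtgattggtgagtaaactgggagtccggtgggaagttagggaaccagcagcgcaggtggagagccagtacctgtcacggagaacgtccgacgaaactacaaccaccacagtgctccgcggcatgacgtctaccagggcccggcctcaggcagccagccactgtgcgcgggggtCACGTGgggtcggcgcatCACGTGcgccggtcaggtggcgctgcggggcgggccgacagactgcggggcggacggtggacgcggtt
Atp6v1a: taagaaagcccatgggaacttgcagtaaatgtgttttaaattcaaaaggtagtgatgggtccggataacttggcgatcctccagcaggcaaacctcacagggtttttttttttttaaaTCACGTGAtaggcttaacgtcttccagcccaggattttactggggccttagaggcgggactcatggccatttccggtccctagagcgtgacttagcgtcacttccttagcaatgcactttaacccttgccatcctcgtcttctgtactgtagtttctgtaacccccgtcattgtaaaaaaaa
Atp6v0d1: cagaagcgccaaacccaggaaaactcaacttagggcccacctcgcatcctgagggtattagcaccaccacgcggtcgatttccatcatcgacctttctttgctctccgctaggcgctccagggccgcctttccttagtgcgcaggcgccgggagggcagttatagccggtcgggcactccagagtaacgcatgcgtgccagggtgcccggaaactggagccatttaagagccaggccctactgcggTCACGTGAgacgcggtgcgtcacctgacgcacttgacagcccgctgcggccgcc
Atg7: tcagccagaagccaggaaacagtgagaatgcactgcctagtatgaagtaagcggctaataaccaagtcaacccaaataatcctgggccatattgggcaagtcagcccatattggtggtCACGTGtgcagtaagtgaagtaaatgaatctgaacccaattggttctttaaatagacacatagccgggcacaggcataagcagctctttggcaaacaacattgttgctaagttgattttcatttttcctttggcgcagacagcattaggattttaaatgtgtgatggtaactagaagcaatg
Atg3: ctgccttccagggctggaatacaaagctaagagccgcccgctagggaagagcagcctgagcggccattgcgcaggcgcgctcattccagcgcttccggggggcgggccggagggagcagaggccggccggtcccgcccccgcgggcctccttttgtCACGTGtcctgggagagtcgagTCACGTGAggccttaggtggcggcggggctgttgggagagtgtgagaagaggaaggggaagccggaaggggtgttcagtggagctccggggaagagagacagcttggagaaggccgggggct
They lie at chr8:13158911-13159210 (plus strand) for Lamp1, chr4:117887280-117887579 (minus) for Atp6v0b and chr16:44139210-44139509 (minus) for Atp6v1a. That of Atp6v0d1 lies at chr8:105566015-105566314 (minus), that of Atg7 at chr6:114670846-114671145 (plus) and that of Atg3 at chr16:45158579-45158878 (plus). The Atg7 window lies inside its annotated gene, which begins at chr6:114643097. The Atp6v0e window, at chr17:26676146-26676445, likewise lies inside its gene, which begins at chr17:26663231. So does the Atp6v1a window, as that gene, on the minus strand, begins at chr16:44139705. The windows of Atg7, Atp6v0e and Atp6v1a therefore surround starts internal to the gene. Lamp1 has 4 copies of CACGTG, which begin 61, 45, 28 and 15 bases before its start. A match is a description of the letters and not a site. Over the 8500 tested genes with a window, those with TCACGTGA had a median change of -0.12 and those without it -0.09. Of these, 46.3% and 42.6% were called lower.

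Of the 8 members of V1, 7 fell and 1 rose, with changes from -0.69 to 0.14, and of the 5 members of V0, 4 fell and 1 rose, with changes from -0.31 to 0.70. Summed over its 8 members, V1 stood at 164 to 167 FPKM in MHCII-hi and 225 to 236 FPKM in MHCII-lo. The 5 V0 members summed to 159 to 166 FPKM in MHCII-hi and 182 to 188 FPKM in MHCII-lo. The ratio of V1 to V0 was 1.02 ± 0.0215 in MHCII-hi and 1.24 ± 0.0254 in MHCII-lo (SD). Its level depends on which rows are summed: with pseudogene rows added it was 0.825 ± 0.0289 in MHCII-hi and 1.06 ± 0.0170 in MHCII-lo, and with the other a subunits added to V0 it was 0.748 ± 0.0142 in MHCII-hi and 0.963 ± 0.0197 in MHCII-lo. All of these ratios were lower in each MHCII-hi library than in each MHCII-lo library, and no test was made on them.

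Loci of the members described first are given in GRCm38, and all are protein-coding genes: Atp6v1a at chr16:44085402-44139705, Atp6v0a1 at chr11:101009452-101063719, Lamp1 at chr8:13159161-13175338, Npc2 at chr12:84754562-84773152, Psap at chr10:60277627-60302597, Ulk1 at chr5:110784488-110810097, Gabarap at chr11:69991143-69994951 and Tfeb at chr17:47737030-47792419.

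In V1, subunits A and B form the ring that hydrolyses ATP. Atp6v1a (subunit A) had 15.5, 15.6 and 15.4 FPKM in MHCII-hi libraries, against 23.9, 23.0 and 23.4 FPKM in MHCII-lo libraries. Atp6v1b2 (subunit B) had 28.95, 28.6 and 27.9 FPKM in MHCII-hi, against 45.4, 45.5 and 47.4 FPKM in MHCII-lo. The groups did not overlap for either gene, and the changes were -0.57 ± 0.03 for Atp6v1a and -0.67 ± 0.03 for Atp6v1b2 (SE, limma adjusted p = 3.58e-06 and 1.83e-06). Subunits C and H control how V1 sits on V0. Atp6v1c1 had 6.86, 7.36 and 6.95 FPKM in MHCII-hi, against 11.7, 10.95 and 11.6 FPKM in MHCII-lo. Atp6v1h had 4.08, 3.84 and 3.45 FPKM in MHCII-hi, against 6.71, 6.53 and 6.90 FPKM in MHCII-lo. Atp6v1h fell by 43.5% of its mean in MHCII-lo, the widest relative fall of the 35 members, and Atp6v1c1 by 38.2%. The peripheral stalks, built of subunits E and G, and the rotor, of D and F, divided. Atp6v1g1 had 47.0, 47.8 and 45.5 FPKM in MHCII-hi, against 70.2, 67.9 and 63.7 FPKM in MHCII-lo. Atp6v1f had 28.9 ± 2.09 FPKM in MHCII-hi and 38.6 ± 2.85 FPKM in MHCII-lo, and Atp6v1e1 had 21.1 ± 0.866 FPKM in MHCII-hi and 24.3 ± 0.670 FPKM in MHCII-lo (SD). Only Atp6v1d, the rotor shaft, rose in V1, with 13.4, 13.9 and 14.1 FPKM in MHCII-hi against 12.8, 12.4 and 12.1 FPKM in MHCII-lo, a change of 0.14 ± 0.03 (SE, limma adjusted p = 0.0108).

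In V0, 4 members fell and Atp6v0a1 rose. Atp6v0e, a small membrane subunit, had 15.3, 16.2 and 16.3 FPKM in MHCII-hi, against 20.4, 19.3 and 20.1 FPKM in MHCII-lo. Atp6v0b, a ring subunit, had 39.8, 35.8 and 34.2 FPKM in MHCII-hi, against 45.7, 45.5 and 43.6 FPKM in MHCII-lo. Both sets of libraries stood apart, with changes of -0.31 ± 0.04 and -0.29 ± 0.06 (SE, limma adjusted p = 0.000322 and 0.00299). Atp6v0d1, which couples the rotor to the ring, had 47.0, 46.8 and 45.7 FPKM in MHCII-hi, against 49.2, 53.6 and 49.9 FPKM in MHCII-lo. Its change of -0.13 ± 0.04 passed (SE, limma adjusted p = 0.0171), but not under quantile normalization (0.105), median-of-ratios scaling (0.457) or without the third MHCII-hi library (0.0527). Its adjusted p lay between 0.0143 and 0.457 over 18 alternatives.

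Atp6v0c encodes the main proteolipid of the ring and has a processed pseudogene, Atp6v0c-ps2, that matches it at 99.8% of 465 aligned bases. Atp6v0c stood at 53.4 ± 1.11 FPKM in MHCII-hi and 63.5 ± 0.728 FPKM in MHCII-lo, and passed as lower (limma adjusted p = 9.39e-05). The pseudogene row held 39.8 FPKM in MHCII-hi and 34.6 FPKM in MHCII-lo, so the level of Atp6v0c depends on how shared reads were assigned. With the rows of its 2 pseudogenes added, Atp6v0c stood at 92.3, 98.5 and 89.2 FPKM in MHCII-hi, against 100.2, 97.1 and 97.2 FPKM in MHCII-lo. The summed groups overlapped, and the change of -0.07 did not pass (limma adjusted p = 0.121, against a lowest value of 6.41e-05 over the alternatives).

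Subunit a of V0 comes in several forms that place the pump in different membranes. Atp6v0a1 was the member that rose most, with 10.70, 10.28 and 10.01 FPKM in MHCII-hi against 6.17, 5.84 and 5.94 FPKM in MHCII-lo, a change of 0.70 ± 0.04 (SE, limma adjusted p = 8.35e-06). The most abundant form was Tcirg1 (subunit a3, known from osteoclasts), which is not a member, at 47.5 ± 0.499 FPKM in MHCII-hi and 43.8 ± 0.183 FPKM in MHCII-lo (SD). Atp6v0a2 averaged 10.95 ± 0.797 FPKM in MHCII-hi and 10.1 ± 0.197 FPKM in MHCII-lo, without passing (limma adjusted p = 0.115). Atp6v0a1 made up 15.0 ± 0.169% of the FPKM of subunit a genes in MHCII-hi and 9.98 ± 0.253% in MHCII-lo. The summed a subunits were thus higher in MHCII-hi, 68.8 ± 1.54 FPKM against 59.9 ± 0.203 FPKM in MHCII-lo, opposite to the other V0 members, without a test of the sums. For subunits d, e, B, C and G, the listed member held over 97% of its family in either group.

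**Figure D3:**
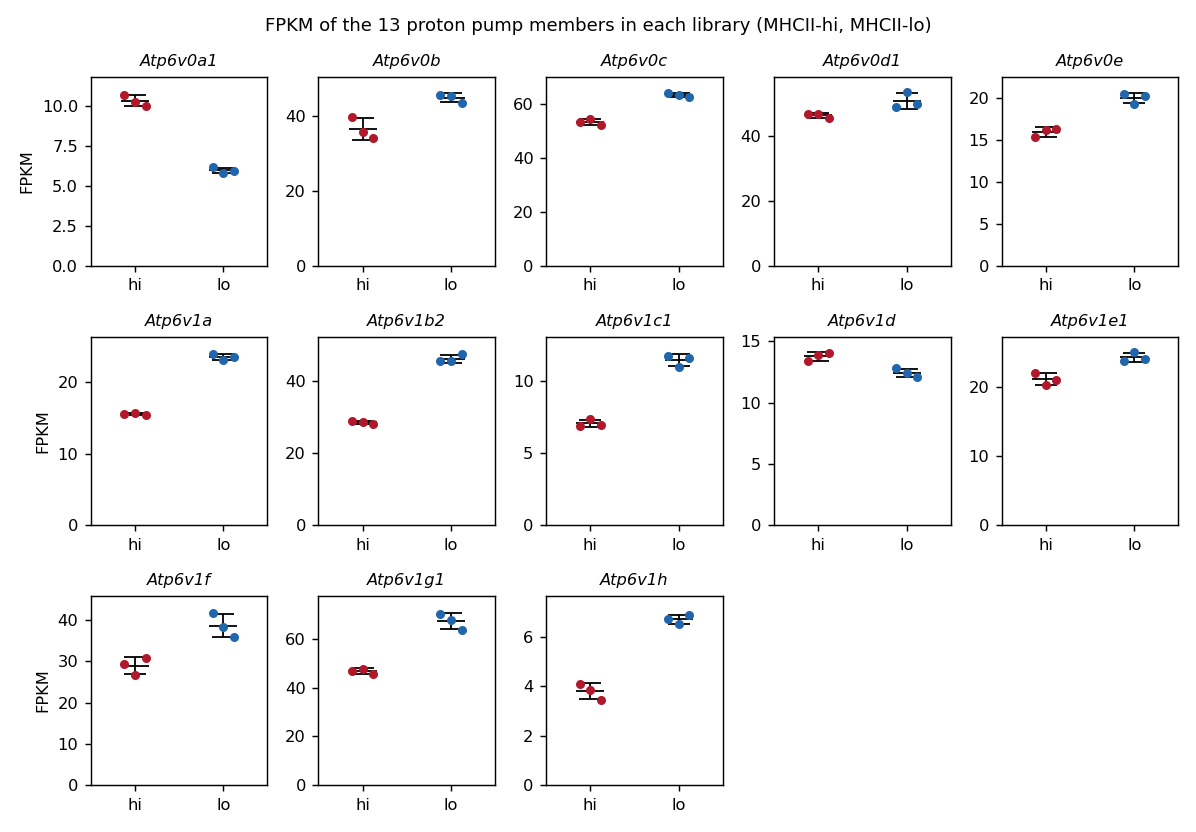
FPKM of the 13 proton pump members in each MHCII-hi (hi, red) and MHCII-lo (lo, blue) library, with the mean and SD; every axis starts at 0. Points of the groups do not overlap in any of the 13 genes, and Atp6v0a1 and Atp6v1d are the 2 that stand higher in MHCII-hi.

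Among 20 other pump genes (alternative subunits, accessory and assembly proteins), 11 were tested, with 6 higher, 4 lower and 1 short of the threshold. The shares over all tested genes were 27.2% higher and 40.5% lower. Atp6ap2, an accessory protein also known as the prorenin receptor, fell to 44.4 ± 3.28 FPKM in MHCII-hi, against 80.4 ± 2.77 FPKM in MHCII-lo. Its partner Atp6ap1 rose, with 65.7 ± 1.80 FPKM in MHCII-hi and 57.9 ± 1.65 FPKM in MHCII-lo. Rogdi and Dmxl2, subunits of the RAVE-like complex that assembles V1 on V0, rose by 0.75 and 0.60 on the log2 scale (limma adjusted p = 3.16e-05 and 3.07e-05). Wdr7, a Dmxl2 partner, fell to 3.17 ± 0.164 FPKM in MHCII-hi, against 3.89 ± 0.137 FPKM in MHCII-lo.

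Of the 4 lysosomal membrane members, Lamp1, Lamp2 and Cd63 fell. Lamp1, whose promoter carries 4 CACGTG copies, had 142, 139 and 139 FPKM in MHCII-hi libraries, against 190, 197 and 194 FPKM in MHCII-lo libraries. Lamp2, needed for vesicle fusion and chaperone-mediated autophagy, had 25.5, 25.9 and 24.8 FPKM in MHCII-hi, against 36.4, 35.9 and 37.1 FPKM in MHCII-lo. Their changes were close, -0.47 ± 0.02 and -0.51 ± 0.03 (SE, limma adjusted p = 1.55e-06 and 6.28e-06). Cd63, a tetraspanin of late endosomes and granules, stood at 30.5 ± 0.904 FPKM in MHCII-hi and 39.1 ± 0.883 FPKM in MHCII-lo (SD). A near-identical Cd63-ps row held 12.5 FPKM in either group, and with it added Cd63 still passed as lower (change -0.26, limma adjusted p = 0.00109).

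The pair of proteins that move cholesterol out of the lysosome differed. Npc2, the soluble carrier in the lumen, had 39.8, 40.0 and 41.4 FPKM in MHCII-hi, against 66.1, 68.1 and 66.7 FPKM in MHCII-lo. Its change of -0.72 ± 0.02 was the widest fall among the 35 members on the log2(FPKM + 1) scale (SE, limma adjusted p = 8.94e-07), while as a share of the mean in MHCII-lo it fell by 39.7%, less than Atp6v1h. Npc1, the membrane receptor that takes cholesterol from it, had 5.53, 6.07 and 5.73 FPKM in MHCII-hi, against 5.17, 5.46 and 5.63 FPKM in MHCII-lo. The Npc1 groups overlapped and the gene missed the threshold (limma adjusted p = 0.195). Part of its transcript overlaps Rmc1 on the other strand, whose row held 9.71 FPKM in MHCII-hi and 7.34 FPKM in MHCII-lo, and the strand setting of the counting is not stated. It passed as higher with median-of-ratios scaling (0.0260) and its direction turned to -0.03 once each library's length and GC trend was removed, with adjusted p from 0.0260 to 0.587 over 18 alternatives.

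Psap, the precursor of the saposins that help degrade sphingolipids, was the most abundant member, with 633, 630 and 633 FPKM in MHCII-hi against 865, 889 and 874 FPKM in MHCII-lo. It fell by 27.9%, close to Lamp1, which fell by 27.8%. Gusb (beta-glucuronidase) had 20.9, 20.4 and 21.9 FPKM in MHCII-hi, against 32.4, 33.3 and 32.0 FPKM in MHCII-lo. Hexa, the alpha subunit of hexosaminidase, had 89.0, 87.9 and 88.4 FPKM in MHCII-hi, against 113, 119 and 116 FPKM in MHCII-lo. In all of these lumen genes the groups stood apart, with limma adjusted p = 3.39e-07 for Psap, 7.38e-06 for Gusb and 1.12e-05 for Hexa. Lipa, the acid lipase, fell least, at 7.17 ± 0.456 FPKM in MHCII-hi and 8.65 ± 0.197 FPKM in MHCII-lo (SD, limma adjusted p = 0.00414). With the length and GC trend removed, Lipa did not pass (change -0.11, adjusted p = 0.0765, the highest of its alternatives, which began at 0.00269).

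Lysosomal genes outside the members did not share this direction to the same extent. Of 30 other membrane genes in the fit, 13 were higher, 11 lower and 6 neither, with a median change of -0.01. Scarb2, the receptor that carries glucocerebrosidase to the lysosome, fell to 8.39 ± 0.542 FPKM in MHCII-hi, against 14.8 ± 0.461 FPKM in MHCII-lo. The macrophage glycoprotein Cd68 rose, with 78.2 ± 1.60 FPKM in MHCII-hi and 54.3 ± 2.25 FPKM in MHCII-lo, and so did Cln3, with 13.2 ± 0.836 FPKM in MHCII-hi and 8.70 ± 0.248 FPKM in MHCII-lo. The cation channel Mcoln2 rose too, with 2.20 ± 0.0794 FPKM in MHCII-hi and 0.807 ± 0.178 FPKM in MHCII-lo. Of 39 other lumen genes, 12 were higher, 16 lower and 11 neither, with a median of -0.09. For both lists, the shares over all tested genes were 27.2% higher and 40.5% lower. Ggh, the gamma-glutamyl hydrolase of folates, fell by 0.73 on the log2 scale (limma adjusted p = 4.40e-06). Acp5, the tartrate-resistant acid phosphatase, and the sulfatase Arsb rose, by 0.53 and 0.31. These lists were tested gene by gene only, and no test compared the lists with each other.

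Markers of other cells moved in the same comparison, in which 27.2% of all tested genes were higher and 40.5% lower. The 12 monocyte and macrophage markers summed to 650 to 652 FPKM in MHCII-hi and 867 to 891 FPKM in MHCII-lo, with 5 higher and 6 lower. Among them Ccr2 and F13a1 fell to 37.0 and 86.4 FPKM in MHCII-hi, against 74.1 and 182 FPKM in MHCII-lo, and the complement genes C1qa, C1qb and C1qc rose. The 12 erythroid markers summed to 718 to 743 FPKM in MHCII-hi and 1029 to 1053 FPKM in MHCII-lo, with 11 lower and none higher. B cell markers summed to 1064 to 1070 FPKM in MHCII-hi and 189 to 193 FPKM in MHCII-lo, with 10 of 10 higher, and plasma cell markers to 465.2 to 470.7 FPKM in MHCII-hi and 77.96 to 80.96 FPKM in MHCII-lo, with 8 of 8 higher. Of 12 neutrophil markers 7 rose and 4 fell. The 4 were the primary granule genes Elane, Mpo, Prtn3 and Ctsg, with changes of -0.52, -0.33, -0.89 and -0.80, while Ngp and Mmp8, genes of later granules, rose by 1.43 and 1.40. Dendritic cell markers summed to 74.8 to 78.4 FPKM in MHCII-hi and 35.6 to 37.4 FPKM in MHCII-lo, with 5 of 8 tested and all 5 higher. The 7 megakaryocyte markers summed to 30.1 to 32.5 FPKM in MHCII-hi and 21.5 to 23.7 FPKM in MHCII-lo, with 2 of 5 tested higher. The 8 T and NK cell markers summed to 148 to 154 FPKM in MHCII-hi and 147 to 155 FPKM in MHCII-lo, with 5 higher and 2 lower. The 12 stem cell gate and HSC markers summed to 150 to 156 FPKM in MHCII-hi and 161 to 164 FPKM in MHCII-lo. Of the 6 tested, 3 rose and 1 fell. Stem cell gates select against some of these genes, such as Cd48, so the sum does not measure stem cells. Flt3 is also on the dendritic cell list. No marker was at 0 in all 6 libraries. The part of these cell types in the changes of the lysosomal and autophagy members was not tested.

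The autophagy members did not move as one group. Ulk1, the kinase that starts autophagosome formation, had 9.42, 9.84 and 8.98 FPKM in MHCII-hi libraries, against 5.10, 6.10 and 5.85 FPKM in MHCII-lo libraries. Its change of 0.64 ± 0.07 was the widest of the autophagy members (SE, limma adjusted p = 0.000146), and its paralog Ulk2, not a member, rose by 0.31 (limma adjusted p = 0.00122). Becn1, a subunit of the lipid kinase complex that acts next, had 15.2, 15.1 and 14.8 FPKM in MHCII-hi, against 18.8, 18.3 and 17.7 FPKM in MHCII-lo, and fell. Becn1 shares 1299 bases with Cntd1 on the other strand, whose row held under 0.5 FPKM in either group. The ratio of Ulk1 to Becn1 was 0.627 ± 0.0230 in MHCII-hi and 0.312 ± 0.0348 in MHCII-lo (SD).

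The conjugation enzymes that attach ATG8 proteins to lipid did not move together. Atg5, part of the complex that directs conjugation, had 12.8, 13.7 and 12.7 FPKM in MHCII-hi, against 16.5, 15.9 and 16.6 FPKM in MHCII-lo, a change of -0.30 ± 0.04 (SE, limma adjusted p = 0.000422). Atg7, the activating enzyme, had 8.69, 8.56 and 7.98 FPKM in MHCII-hi, against 6.86, 7.67 and 7.33 FPKM in MHCII-lo. It rose by 0.18 ± 0.05 (SE, limma adjusted p = 0.0164), but did not pass without the first MHCII-hi library (0.0512) or with the length and GC trend removed (0.0766), in a range from 0.00323 to 0.0766. Atg3, the conjugating enzyme, had 36.8, 33.4 and 37.3 FPKM in MHCII-hi, against 36.4, 34.3 and 33.4 FPKM in MHCII-lo. The Atg3 groups overlapped, and it missed the threshold (limma adjusted p = 0.459), though it passed as higher with the length and GC trend removed (0.00660) and with median-of-ratios scaling (0.0467), in a range up to 0.812.

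Of the 4 ATG8 members, 3 rose. Gabarap was the most abundant, with 147, 144 and 141 FPKM in MHCII-hi against 113, 108 and 111 FPKM in MHCII-lo, a change of 0.38 ± 0.02 (SE, limma adjusted p = 1.42e-05). Map1lc3b (LC3B) had 23.2, 22.9 and 23.6 FPKM in MHCII-hi, against 18.4, 19.2 and 19.9 FPKM in MHCII-lo. Map1lc3a (LC3A) had 6.96, 6.45 and 6.68 FPKM in MHCII-hi, against 4.84, 4.21 and 4.64 FPKM in MHCII-lo. For none of these did the groups overlap, and the changes of the LC3 genes were 0.27 ± 0.04 for Map1lc3b and 0.47 ± 0.06 for Map1lc3a (SE, limma adjusted p = 0.000527 and 0.000290). Gabarapl2 went the other way, with 13.4, 13.9 and 14.8 FPKM in MHCII-hi against 16.4, 17.8 and 16.8 FPKM in MHCII-lo (change -0.26 ± 0.05, SE, limma adjusted p = 0.00191). Its call was lost after removal of the length and GC trend (adjusted p = 0.0753, in a range that began at 0.00137), and it held with its 3 pseudogene rows added (0.00479). Gabarapl1, not a member, stood at 24.2 ± 1.69 FPKM in MHCII-hi and 25.4 ± 0.435 FPKM in MHCII-lo, short of the threshold (limma adjusted p = 0.257). The 5 ATG8 genes summed to 212 ± 1.16 FPKM in MHCII-hi and 177 ± 1.77 FPKM in MHCII-lo, of which Gabarap held 67.9% in MHCII-hi and 62.6% in MHCII-lo.

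Sqstm1 (p62), the receptor that links ubiquitinated cargo to ATG8 proteins and is itself degraded by autophagy, had 50.7, 48.6 and 50.1 FPKM in MHCII-hi, against 40.4, 40.3 and 40.5 FPKM in MHCII-lo. All MHCII-hi libraries lay above all MHCII-lo libraries, and the change was 0.30 ± 0.02 (SE, limma adjusted p = 3.74e-05). Set against Lamp1 in the same library, the level of Gabarap was 1.03 ± 0.0161 times that of Lamp1 in MHCII-hi and 0.572 ± 0.0208 times in MHCII-lo (SD). For Sqstm1 the ratio to Lamp1 was 0.356 ± 0.00468 in MHCII-hi and 0.208 ± 0.00364 in MHCII-lo. These ratios rest on the same values as the single genes and were not tested. They are transcript levels and do not measure autophagic flux.

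**Figure D4:**
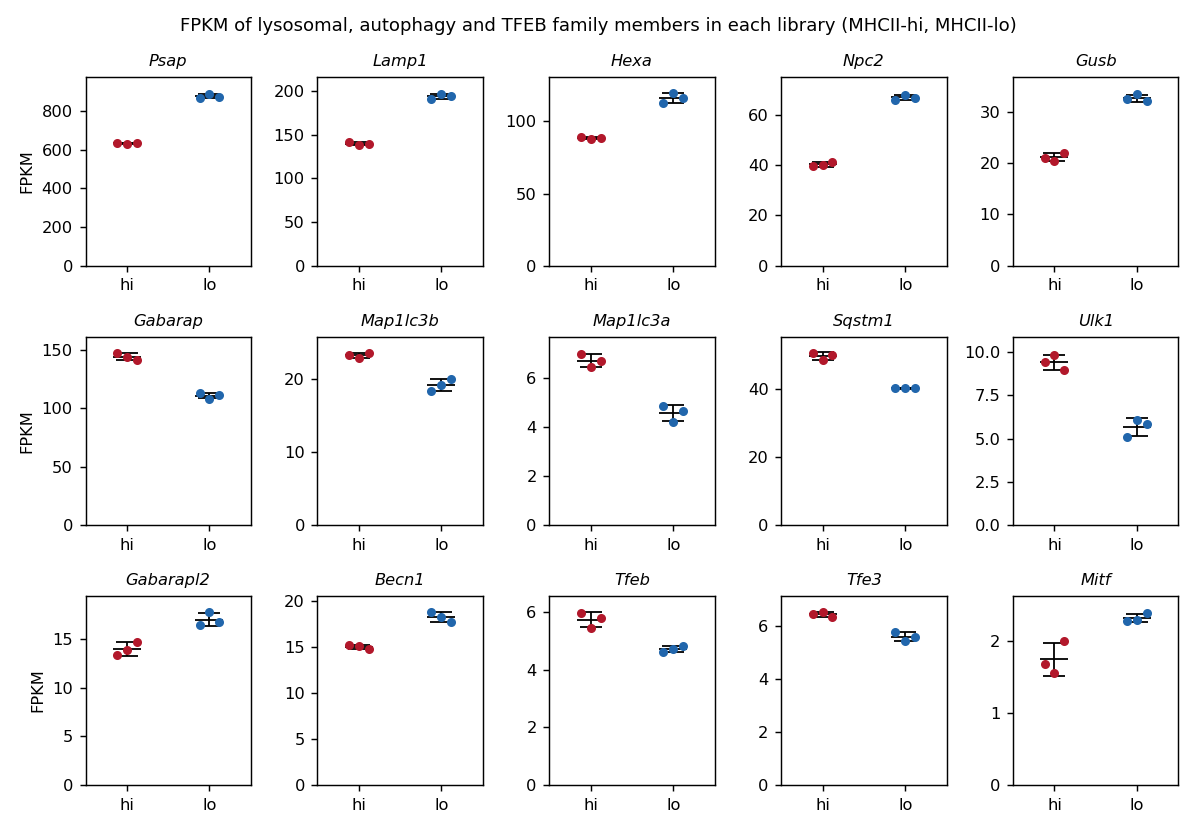
FPKM of 15 lysosomal, autophagy and TFEB family members in each MHCII-hi (hi, red) and MHCII-lo (lo, blue) library, with the mean and SD; every axis starts at 0. The top row of lysosomal genes stands lower in MHCII-hi, the 5 genes of the middle row stand higher, and in the bottom row Gabarapl2, Becn1 and Mitf are lower and Tfeb and Tfe3 higher.

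Among 50 other autophagy genes, 19 were higher, 13 lower and 18 neither, with a median change of -0.00445 on the log2 scale. That median lay near the -0.08 of all tested genes, of which 27.2% were higher and 40.5% lower. The receptor Calcoco1 rose by 0.82 on the log2 scale, to 6.54 ± 0.495 FPKM in MHCII-hi against 3.27 ± 0.131 FPKM in MHCII-lo. Plekhm1, an adaptor for autophagosome fusion, and Atg2a, a lipid transfer protein, rose by 0.60 and 0.59 on the log2 scale (limma adjusted p = 7.28e-05 and 0.000364). Vamp8, a fusion SNARE, fell by 0.57 and the membrane protein Vmp1 by 0.56 (limma adjusted p = 0.000102 and 1.22e-05), and Atg101, of the Ulk1 complex, fell by 0.33.

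The TFEB family factors were among the least abundant members. Tfeb had 5.95, 5.46 and 5.81 FPKM in MHCII-hi libraries, against 4.60, 4.72 and 4.81 FPKM in MHCII-lo libraries. Tfe3 had 6.47, 6.54 and 6.35 FPKM in MHCII-hi, against 5.78, 5.43 and 5.59 FPKM in MHCII-lo. Both rose without overlap of the groups, by 0.24 ± 0.04 and 0.18 ± 0.04 (SE, limma adjusted p = 0.00261 and 0.00548). Mitf, the lowest member of all, had 1.69, 1.56 and 2.0 FPKM in MHCII-hi, against 2.28, 2.30 and 2.39 FPKM in MHCII-lo. It fell by 0.28 on the log2 scale (limma adjusted p = 0.0144), but did not pass without the third MHCII-lo library (0.0513, the highest of a range that began at 0.00507). Tfec, the fourth relative, is not a member and changed most, with 5.92 ± 0.190 FPKM in MHCII-hi against 12.8 ± 0.707 FPKM in MHCII-lo (change -0.99 ± 0.05, SE, limma adjusted p = 3.93e-06). Tfec made up 29.8 ± 1.12% of the FPKM of these 4 genes in MHCII-hi and 50.2 ± 1.29% in MHCII-lo. The family's sum was 19.9 ± 0.217 FPKM in MHCII-hi and 25.4 ± 0.780 FPKM in MHCII-lo, and this lower sum was not tested.

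**Figure D5:**
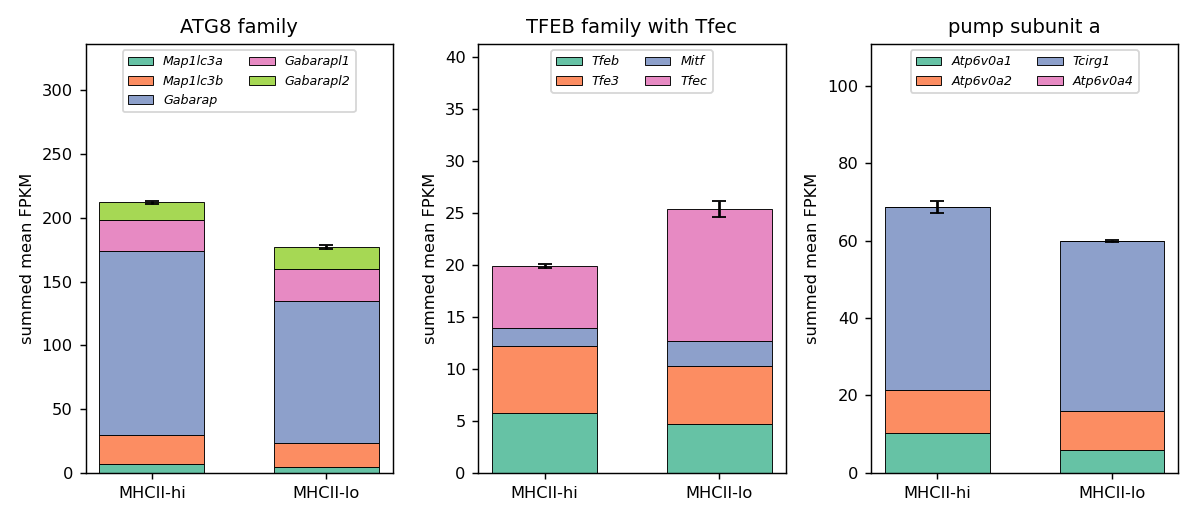
Mean FPKM of the genes of 3 families, stacked, in MHCII-hi (left bar) and MHCII-lo (right bar); the error bar is the SD of the family's sum over 3 libraries. The ATG8 sum is 212 against 177 FPKM, that of the TFEB family with Tfec 19.9 against 25.4 FPKM, and that of subunit a 68.8 against 59.9 FPKM.

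TFEB proteins are held in the cytosol by the kinase complex mTORC1, which is recruited to the lysosome by the Ragulator. Of 35 tested genes of mTORC1, the Ragulator and related control, 6 were higher, 14 lower and 15 neither, with a median of -0.07. The shares over all tested genes were 27.2% higher and 40.5% lower. The 5 Ragulator subunits all fell, with a median of -0.52, from Lamtor1, at 14.4 ± 0.191 FPKM in MHCII-hi and 15.2 ± 0.107 FPKM in MHCII-lo (limma adjusted p = 0.0431), to Lamtor5, at 22.4 ± 1.36 FPKM in MHCII-hi and 37.7 ± 1.96 FPKM in MHCII-lo (limma adjusted p = 3.04e-05). The Ragulator subunits have short transcripts, with a median length of 881 bases. Tested genes of 619 to 1190 bases had a median change of -0.27, and the part of length in the Ragulator changes was not tested. Rheb, the GTPase that activates mTORC1, fell by 0.585 on the log2 scale. Mtor stood at 6.09 ± 0.365 FPKM in MHCII-hi and 5.61 ± 0.146 FPKM in MHCII-lo, short of the threshold (limma adjusted p = 0.111). Prkab1, a subunit of the energy sensor AMPK, and the sestrins Sesn2 and Sesn3 rose, by 0.67, 0.48 and 0.39.

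Transcript length and GC content moved with the comparison over all genes. The shortest 10% of tested genes (10 to 618 bases) had a median change of -0.08, the next 10% (619 to 1190 bases) -0.27, and the longest 10% 0.05. Over the 35 members the Spearman correlation of change with length was 0.12, and with GC content 0.44, against 0.15 and 0.13 over all tested genes with a length, as a description over genes. Removing each library's trend on both gave 2 pump members higher and 11 lower, 7 lysosomal members lower, and 6 autophagy members higher and 2 lower, with the calls of Lipa, Atg7 and Gabarapl2 lost and that of Atg3 gained.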

How the data were processed

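RNA-seq of 3 MHCII-hi and 3 MHCII-lo libraries was analysed from the deposited gene tables. Per the submitters' processing notes, the authors used fastp, HISAT2 and StringTie on GRCm38 (mm10). No source used here gives versions, settings, annotation or strand handling. The deposited values were read as FPKM, because they have 2 decimals and library sums that are alike but not equal. FPKM is relative to library total and transcript length, so a rise of abundant transcripts lowers all others. Without read counts, depth and counting intervals cannot be given.

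For 67 repeated symbols (none a member) the most abundant row was used. Genes averaging 1 FPKM or more were tested on log2(FPKM + 1) in limma 3.58.1 (R 4.3.3; empirical Bayes, mean-variance trend, two-sided, Benjamini-Hochberg threshold 0.05). Changes are MHCII-hi minus MHCII-lo on that scale, which understates those of low genes. The fit was tested on simulated data with independent normal noise and far fewer changed genes than were called here. That simulation does not cover changes as broad as those in these data. Coordinates, length and GC content (longest basic transcript) came from GENCODE M21 (GRCm38), which matched 96.6% of symbols. Near-identical copies were transcripts of other genes at 95% identity or more over at least 200 bases, found with blastn. The members and lists were chosen with earlier results of these data known. All members may be named; of the other lists, up to 3 genes per list and direction are named, by size of change among called genes with separate groups, or the 1 with the smallest p where none passed. Tcirg1, Atp6v0a2, Atp6ap1, Wdr7, Gabarapl1, Ulk2, Mtor, Lamtor1, the Ragulator subunits as a group, Ccr2, F13a1, the C1q genes, the neutrophil genes, Rmc1, Cntd1, Cd63-ps and Atp6v0c-ps2 were chosen after their values were seen. Figures were drawn with matplotlib 3.10.9.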

Additional observations from a re-analysis of the deposited data

How the results depend on the processing

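Of 629 recomputed results for single members under 18 alternatives, 616 kept their direction and side of the threshold, 9 lost the call, 3 gained one and 1 reversed, Npc1, at -0.0322 once each library's length and GC trend was removed. The 12 others stand beside their genes above, and 27 of the 35 members changed under no alternative. The members called higher numbered 9 to 12 and those called lower 21 to 23. The median of the pump members was -0.26 with quantile normalization, -0.22 with median-of-ratios scaling and -0.34 with that trend removed, and -0.35 to -0.29 with each library left out. The median of the lysosomal members was -0.43, -0.37 and -0.36 under the same 3 settings, and that of the autophagy members 0.31 with median-of-ratios scaling. With a mean of at least 5 FPKM, 2210 of all genes were called higher against 3348, from fewer genes tested. With the replicate number as a block, 10 members were called higher and 23 lower, as without it. Whether the numbers pair the libraries could not be decided from 3 libraries per group. Same-numbered libraries had correlations of 0.06, 0.00 and 0.08 of their deviations from the group means. Each MHCII-hi library except the second correlated best with its own number. The addition of pseudogene rows was chosen after the data were seen. Depth is unknown, so counting error of low members such as Mitf cannot be given.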

Other observations

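Most lysosomal enzymes reach the lysosome by way of mannose 6-phosphate, and the genes of that route moved both ways. Of 13 sorting genes, 4 were higher, 6 lower and 3 neither, with a median change of -0.16. Over all tested genes the shares were 27.2% higher and 40.5% lower. The small receptor M6pr fell to 70.2 ± 1.96 FPKM in MHCII-hi, against 99.1 ± 0.312 FPKM in MHCII-lo (limma adjusted p = 4.10e-06). The large receptor Igf2r rose, with 4.23 ± 0.0153 FPKM in MHCII-hi and 2.93 ± 0.181 FPKM in MHCII-lo (limma adjusted p = 0.000347). Nagpa, which uncovers the mannose 6-phosphate tag, fell by 0.46 on the log2 scale. Of the AP-1 adaptor that carries the receptors, Ap1s1 fell by 0.74 and Ap1m1 rose by 0.33, and the adaptor Gga1 rose by 0.26.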
